A study of Mus musculus with 8 samples.

Results

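The mouse miRNA hairpins with a number of 1000 or more in their name were examined in small RNA libraries of 8 hearts, 4 female and 4 male. They were the mouse entries of the deposited count tables whose name carries such a number, without mir-3071, mir-3074 and mir-3120. This gave 148 hairpins of 500 mouse hairpins, and of 764 hairpin entries when the human and rat entries of the same tables are included. Each library was made from a single heart of a C57Bl6/J wt mouse of 4 to 6 weeks, after enrichment for RNA under 200 nt. No mouse carried a transgene or received a treatment by the labels, and sex is the only difference between the groups that the labels give.

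A miRNA hairpin is cut by the nuclease Drosha and then by Dicer, which leaves a short duplex of a 5' and a 3' arm. One strand of the duplex is loaded into an Argonaute protein, and its seed, bases 2 to 8, pairs with target mRNAs. Hairpins are numbered in the order in which they were named, so the early numbers hold the abundant, conserved families. Many late numbers were entered from deep sequencing with few reads. A hairpin cut in this way is known to give reads on both arms with fixed ends and few reads elsewhere, whereas breakdown pieces of another RNA can lie anywhere. Some hairpins are freed from a short intron by splicing in place of Drosha (mirtrons), and others lie inside a small nucleolar RNA or a small Cajal body RNA, which guide the chemical modification of other RNAs.

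The mature sequences of the members that the results turn on are printed 5' to 3' as RefSeq gives them (GRCm38.p6), with the seed in capitals. The first 6 lines belong to the most abundant hairpins by mature level for which RefSeq gave a mature sequence, which leaves out mir-5099. The next 4 belong to mir-3061 and mir-1306, hairpins with counts on both arms at low level.
miR-1843a-5p: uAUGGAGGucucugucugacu
miR-1843b-5p: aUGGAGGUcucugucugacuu
miR-1839-5p: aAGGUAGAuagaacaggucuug
miR-1198-5p: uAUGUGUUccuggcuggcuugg
miR-1964-3p: cCGACUUCugggcuccggcuuu
miR-3068-5p: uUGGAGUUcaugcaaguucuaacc
miR-3061-5p: cAGUGGGCcgugaaagguagcc
miR-3061-3p: cUACCUUUgauaguccacugcc
miR-1306-5p: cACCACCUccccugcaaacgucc
miR-1306-3p: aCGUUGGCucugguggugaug
None of these seeds occurs in another mouse miRNA listed in the tables with a RefSeq sequence. miR-1843a-5p and miR-1843b-5p share a run of 20 bases that starts at base 2 of the one and base 1 of the other, so their seeds differ by a shift.

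The following lines are shown because each resembles another RNA. miR-1961 and miR-3962 are set beside the let-7 miRNAs they resemble, with the run of bases they share in capitals, and miR-3968 and miR-5100 beside each other.
miR-1961: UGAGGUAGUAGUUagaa
let-7i-5p: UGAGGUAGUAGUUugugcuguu
miR-3962: AGGUAGUAGUUUGUACAuuu
let-7g-5p: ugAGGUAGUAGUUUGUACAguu
miR-3968: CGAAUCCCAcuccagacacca
miR-5100: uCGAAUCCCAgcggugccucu
The shared runs are 13, 17 and 9 bases long.

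Of the 148 members, 147 matched a RefSeq gene by name and 133 had a mature sequence there, of which 55 had 1 and 77 had 2. By the annotation, 43 overlapped an exon of a longer gene, 73 lay in an intron and 31 between genes. The folding energy per base computed from the 122 hairpin sequences had a median of -0.42 kcal per mol, against -0.43 over 264 other mouse hairpins. The median share of paired bases was 68.6% for the members and 72.7% for the others.

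Total counts per library were 29900500 to 38894987. The tissue markers were present in every heart: the heart muscle miRNA mir-499 had a median of 4747 CPM and mir-208a 200.0 CPM, the muscle miRNAs mir-133a-1 and mir-133b had 31.6 and 30.9 CPM, while the 3 mir-124 hairpins, known from brain, were at 0 in all libraries. The endothelial miRNA mir-126a, at a median of 72842 CPM, and the smooth muscle miRNA mir-143, at 42272 CPM, were above all of these. The smooth muscle miRNA mir-145a had 2088 CPM. The liver miRNA mir-122 had a median of 2.22 CPM and mir-200a of epithelium 12.8 CPM. These levels are of the mouse entries alone, and counts on human or rat entries of the same miRNA were not added. The red cell miRNA mir-451a varied from 44.9 to 910 CPM between hearts. The CPM, as edgeR computes it, is a mature count relative to all mature counts of its library after TMM scaling. A small RNA read covers its molecule, so levels were not divided by length.

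The 148 members made up 29.6% of the mouse hairpins and held 356891 counts, which is 0.147% of the mouse counts. Most of that came from few hairpins: the top 5 held 67.5% of the members' counts and the top 10 held 81.8%. In each library 90 to 106 members were listed. Over the 8 hearts, 60 were listed in all, 63 in 2 to 7 and 25 in a single heart. The median member had 114.5 counts in all, against 4655 for the other 352 mouse hairpins. By number alone the edge of the selection was not sharp in level: mir-874, mir-877 and mir-881, just below it, had 3684, 68 and 1063 counts, and mir-1191a, mir-1191b and mir-1193, just above it, had 1364, 373 and 15.

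Low counts need care. In the columns for reads unique to an entry the smallest value above 0 was 10. A hairpin at 0 in a heart may therefore have had reads that were not listed, and no upper limit was drawn from a 0.

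These 4 measures describe how well the counts of a hairpin fit a miRNA: mature counts in every heart, counts on both arms, few counts outside the arms and many exact counts. Exact is the authors' column heading, and its definition is not given in the sources used here. At least 10 mature counts in each of the 8 libraries were found for 52 members (35.1%), against 268 of the 352 other mouse hairpins (76.1%). At least 10 counts in all on each arm were found for 12 members (8.11%) and 155 others (44.0%). At most 10% of counts outside the arms was met by 100 members (67.6%) and 273 others (77.6%), and at least 10% exact by 58 members (39.2%) and 246 others (69.9%). The members thus met each of the 4 criteria less often, and the one on both arms least often. The criteria on every heart and on both arms are fixed numbers of counts, which a hairpin of few counts can miss whatever its shape. In all, 68 members (45.9%) and 65 others (18.5%) had under 100 counts. The gaps on those criteria were not separated from level.

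All 4 criteria were met by 6 members (4.05%) and by 93 of the other mouse hairpins (26.4%). The 6 were mir-1843a, mir-1843b, mir-1839, mir-1198, mir-1943 and mir-3061. Without the criterion on both arms, 24 members and 166 others passed. Without female replicate 2 the 6 became 4, since the only counts on the weaker arm of mir-1198 (11) and of mir-1943 (14) came from that heart. mir-1306 missed the exact criterion alone, and mir-1934, with 73 counts, missed the criterion on every heart. The criteria sort the hairpins and are no test.

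**Figure D1:**
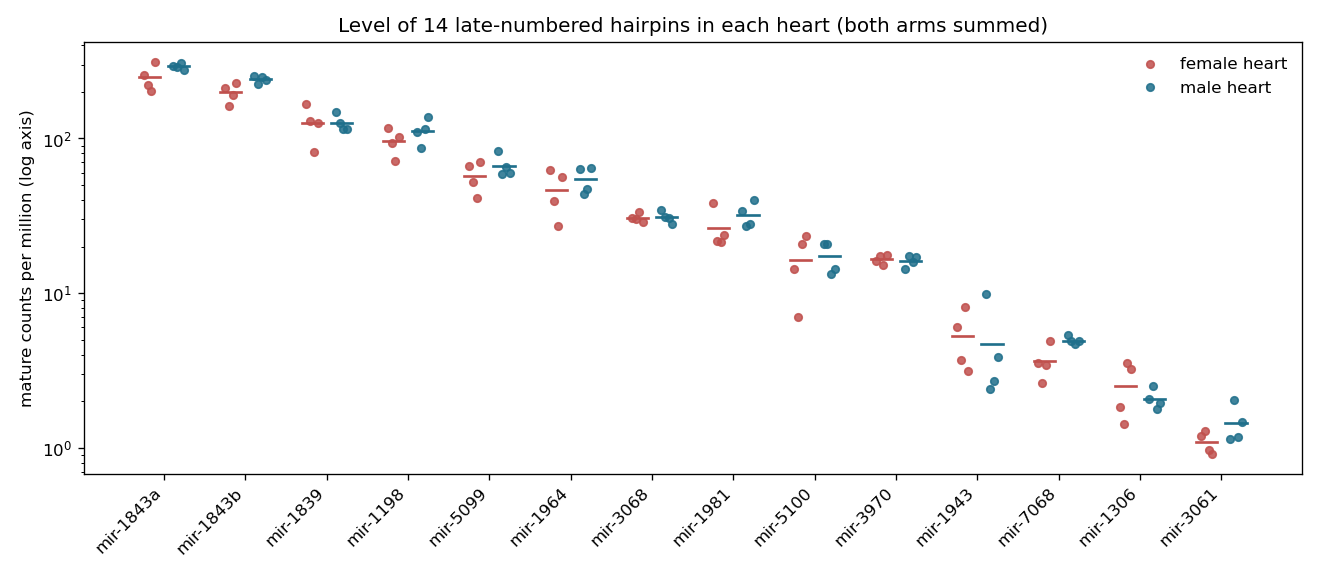
Mature CPM (log axis) of 14 late-numbered hairpins, both arms summed; each point is 1 heart, female on the left and male on the right of each name, and the bar is the mean of 4. mir-1843a and mir-1843b are highest and mir-1306 and mir-3061 lowest, and within each of the 14 hairpins the female and male hearts overlap.

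mir-1843a was the most abundant member by mature counts. It had 258, 222, 204 and 312 mature CPM in female hearts and 294, 288, 310 and 279 in male hearts. The male hearts lay within a narrow range, and the female hearts spread on both sides of it. Its counts over 8 hearts were 64945 on the 5' arm, 5441 on the 3' arm and 5793 (7.60%) outside the arms, and 12.2% of the 5' counts were exact.

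mir-1843b had 212, 162, 192 and 229 mature CPM in female hearts and 255, 227, 248 and 240 in male hearts. One female heart lay above the lowest male heart. It had 50726 counts on the 5' arm, of which 34.6% were exact. Its 3' arm had 6678 counts, of which none was exact. Of its arm counts, 96.9% were unique to an entry, against 97.4% for mir-1843a, so the near-identical 5' sequences left few shared reads.

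mir-1839 had 166, 130, 81.9 and 126 mature CPM in female hearts and 147, 125, 115 and 116 in male hearts. The female replicate 3 was lowest and the female replicate 1 highest of all 8. On its 5' arm lay 32051 counts, on its 3' arm 375 and outside the arms 354 (1.08%), and 32.5% of its mature counts were exact. The exact share was 28.8% to 35.6% over the hearts. Of the 4 most abundant members by mature CPM, it had the smallest share outside the arms. That share was 0.656% ± 0.265 (SD) over 4 female hearts and 1.54% ± 0.215 (SD) over 4 male hearts. It was picked out after the values were seen, and no test was made of it.

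mir-1306, at chr16:18284239-18284317 on the minus strand, lies in an exon of Dgcr8, the gene of Drosha's partner protein, and was far lower than mir-1839. It had 1.84, 1.42, 3.52 and 3.21 mature CPM in female hearts and 2.07, 2.49, 1.79 and 1.95 in male hearts, so the groups overlapped. Its 5' arm had 12, 11, 30 and 53 counts in female hearts and 0, 23, 0 and 0 in male hearts. Its 3' arm had 36, 43, 120 and 53 counts in female hearts and 62, 52, 61 and 57 in male hearts. Both arms were thus read in 5 hearts, and no count lay outside the arms. Only 24 of 613 counts were exact, all on the 3' arm of female replicates 3 and 4.

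Among the other members with counts on both arms, mir-1198 was 5' biased throughout. Its 5' arm held 26910 counts and its 3' arm 11, and 62.0% of the mature counts were exact. mir-3061, in an exon of Ppp2ca, had the most even arms of those that met all criteria. Its 5' arm had 21, 34, 30 and 20 counts in female hearts and 22, 39, 28 and 20 in male hearts, and its 3' arm 10, 15, 11 and 10 in female hearts and 12, 22, 12 and 23 in male hearts. Both arms were present in every heart and none of its 329 counts lay outside them. Its 62 exact counts were all on the 3' arm.

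mir-1964, in an intron of Zfp84, had counts on the 3' arm alone in every heart. There were 1627, 1501, 1162 and 1862 in female hearts and 1887, 1326, 1604 and 1871 in male hearts. Of these counts 48.5% were exact and none of the hairpin's counts lay outside the arms, so it missed the criterion on both arms alone. Over all members, 72 had mature counts on the 3' arm alone, 40 on the 5' arm alone and 12 on both, and 24 had none. Among the other 352 mouse hairpins, 69 had the 3' arm alone, 101 the 5' arm alone and 167 both.

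A large share of the members' counts fell on hairpins that overlap an annotated short RNA or, as mir-1839 and mir-3068, are themselves annotated as one. The overlap, counted on either strand, was found for 13 of 147 members and for 2 of 342 other mouse hairpins with a position. These 13 held 186146 counts, 52.2% of all member counts, and 4 of the 10 most abundant members were among them. mir-1843a at chr12:80391613-80391677 on the minus strand lies in the small Cajal body RNA Scarna3b, within an intron of Dcaf5. mir-1843b at chr1:159340358-159340423 on the plus strand lies in Scarna3a, within an intron of Cop1. mir-1839 at chr7:81529916-81529988 on the plus strand is itself annotated as a small Cajal body RNA in GENCODE vM21, within 2900076A07Rik. mir-3068 at chr12:87437679-87437757 on the minus strand is annotated as a small nucleolar RNA, within an intron of Alkbh1.

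The hairpins of the related pair are shown whole with their mature sequences in capitals, beside mir-1839, to show where on the hairpin the mature sequences lie.
mir-1843a: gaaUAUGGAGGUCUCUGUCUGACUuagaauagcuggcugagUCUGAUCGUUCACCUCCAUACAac
mir-1843b: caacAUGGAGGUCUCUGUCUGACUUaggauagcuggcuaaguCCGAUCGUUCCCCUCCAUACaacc
mir-1839: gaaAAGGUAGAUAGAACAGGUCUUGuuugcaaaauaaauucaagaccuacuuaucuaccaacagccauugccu
Only the 5' sequence of mir-1839 is given as mature by RefSeq, so its 3' arm counts have no printed sequence.

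The shares outside the arms in this list ran from 0% to 100%. mir-3068 had 7545 counts on the 5' arm, 595 on the 3' arm and 1295 outside, and all of the counts outside were exact matches. mir-3535, in the small nucleolar RNA Gm24148 of the nucleolin gene Ncl, had 3703 on the 5' arm, none on the 3' arm and 2440 outside. Its total was 850, 503, 615 and 413 in female hearts and 2186, 553, 372 and 651 in male hearts, so male replicate 1 stood far above the others. mir-1983 overlaps the isoleucine tRNA gene n-TItat14 and had 1279 counts on the 3' arm, of which 53.9% were exact. mir-6516 lies in the small Cajal body RNA Gm26083 of the host gene Snhg20 and had 561 counts on the 5' arm, and mir-1291 in Snora34 had 237. mir-5121 in Snord33 of the ribosomal protein gene Rpl13a had 112 counts, all outside the arms. Whether any of these reads came from the host RNA by another route was not tested.

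In the summed level, the list had 623 ± 92.5 (SD) mature CPM over 4 female hearts and 720 ± 44.1 (SD) over 4 male hearts. The female hearts ran from 530 to 709 CPM and the male hearts from 688 to 783, so they overlapped.

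Another kind of hairpin ended where an intron ends. The 3' end of the hairpin lay within 5 bases of the 3' end of an annotated intron on the same strand for 44 of 147 members (29.9%), against 2 of 342 other mouse hairpins (0.585%), mir-877 and mir-382. This list was formed after the values had been seen, and no test was made of it. For 7 of the 44, the hairpin's 5' end also lay within 5 bases of the intron's 5' end, so the hairpin filled the intron as a mirtron does: mir-1981 in Marc2, mir-3102 in Arhgef17, mir-7068 in Cherp, mir-6958 in Dennd6b, mir-6944 in Dbn1, mir-7091 in Dnase1l1 and mir-1982 in Oaz1. Of 34 such hairpins with a RefSeq sequence on the 3' side, 29 had one that ended in CAG or UAG, against 4 of 63 other members. These are the letters at the end of most introns. The list was formed by the intron's end, so the letters follow largely from that choice and are no separate evidence.

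The hairpins of mir-1981 and mir-7068 are shown with the mature sequences in capitals, because their first bases are gu and their last bases ag, as at the ends of an intron. The hairpin of mir-7043, in Rassf4, ends in cag but does not begin at the intron's start.
mir-1981: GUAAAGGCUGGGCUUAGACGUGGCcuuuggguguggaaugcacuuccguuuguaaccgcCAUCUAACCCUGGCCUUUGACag
mir-7068: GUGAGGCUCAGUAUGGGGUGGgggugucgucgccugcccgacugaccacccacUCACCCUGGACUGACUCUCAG
mir-7043: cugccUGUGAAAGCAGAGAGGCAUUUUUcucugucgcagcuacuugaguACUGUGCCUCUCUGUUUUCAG

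Most of these 44 hairpins were read on the 3' arm. The 3' arm alone was counted in 36, the 5' arm alone in 6 and both in mir-1981, and mir-7007 had no mature count. No count lay outside the arms in 41 of the 44, though at low counts a few reads outside may not have been listed. The median was 123.5 counts, against 114.5 for all members, with a range of 10 to 11186, and 19 of the 44 were listed in all 8 hearts. The 3' arm is the side at the end of the intron.

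mir-1981 was the exception in level and shape. Its 5' arm had 854, 643, 717 and 552 counts in female hearts and 791, 623, 728 and 986 in male hearts. Its 3' arm had 138, 190, 200 and 233 counts in female hearts and 219, 195, 221 and 173 in male hearts. Outside the arms lay 3723 of its 11186 counts (33.3%), between 26.3% and 37.5% in each heart, and 83.0% of those were exact matches. Both arms and the counts outside were thus found in every heart.

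mir-7068, at 1106 counts, had the most counts of those read on the 3' arm alone. It had 3.53, 2.63, 3.41 and 4.90 CPM in female hearts and 5.32, 4.88, 4.66 and 4.87 in male hearts. Only 5.52% of its counts were exact. mir-7043 in Rassf4 and mir-6899 in Klf7 had 840 and 752 counts, all on the 3' arm, with 21.9% and 22.7% exact. mir-7083 in Dock6 was read on the 5' arm alone, and all of its 272 counts were exact, with 30, 20, 52 and 34 in female hearts and 31, 39, 31 and 35 in male hearts. mir-3102 was the opposite: 1992 of its 2002 counts lay outside the arms. The sequences of those reads are not given, so whether they are further mature sequences of this hairpin was not tested.

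**Figure D2:**
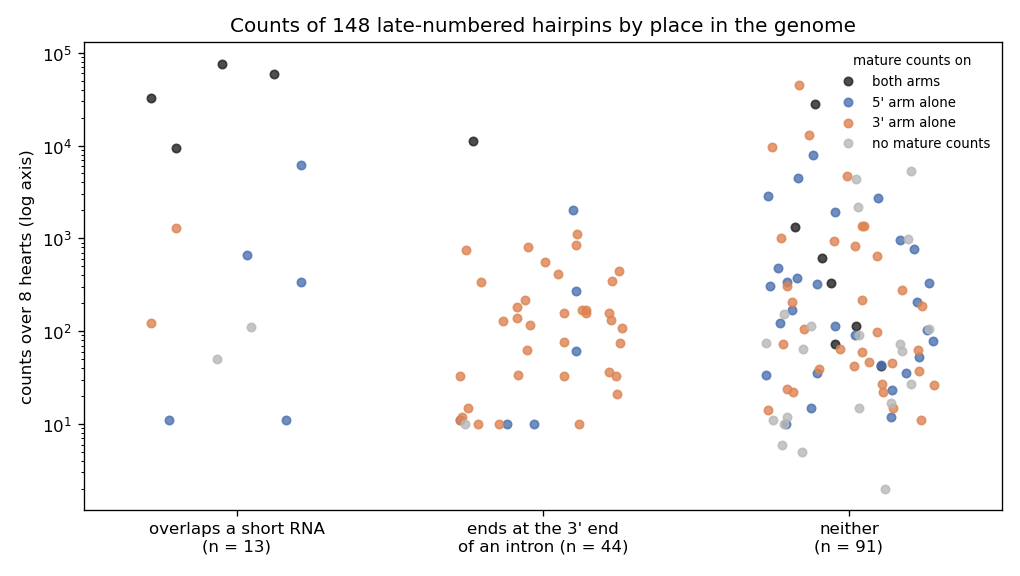
Counts over 8 hearts (log axis) of each of the 148 hairpins, by whether it overlaps an annotated short RNA (13), ends at the 3' end of an intron (44) or neither (91); the colour gives the arms with mature counts, and points are spread sideways at random for sight. Most hairpins at intron ends have the 3' arm alone, and the medians of counts are 656 for those that overlap a short RNA, 123.5 at intron ends and 104 for neither.

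The doubtful end of the selection was set by counts outside the arms and by the lack of exact counts. Outside the arms lay 22.3% of the members' counts, against 2.81% for the other mouse hairpins. Without mir-5099 and mir-3968, left out after the data were seen, the members' share was 14.4%. Taken per hairpin of at least 100 counts, the order was the reverse, with a median of 0.0% outside for members and 1.95% for the others. The median total of these hairpins was 430 counts for members and 12726 for the others. Values under 10 were seldom listed, so a small share outside may be missing for a member. A part of the level in this order was not tested. Taken per heart, the members' share was 22.8% ± 1.39 (SD) over 4 female hearts and 21.8% ± 1.98 (SD) over 4 male hearts. Of the 80 members of at least 100 counts, 43 had no count outside the arms, while 18 had over 50% and 10 over 90% outside. Among 287 other mouse hairpins of that size, 84 had none, 18 had over 50% and 5 over 90%. The others of the 80 lay in between, among them mir-1843a, mir-1839 and mir-1981.

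Exact counts made up 26.4% of the members' mature counts and 26.2% of those of the other mouse hairpins. The pooled value is carried by the abundant members: 59 of 148 members had mature counts of which none was exact, and 22 of these had at least 100 mature counts. Over hairpins of at least 100 counts, the median exact share was 12.6% for 72 members with mature counts and 27.9% for 285 others.

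**Figure D3:**
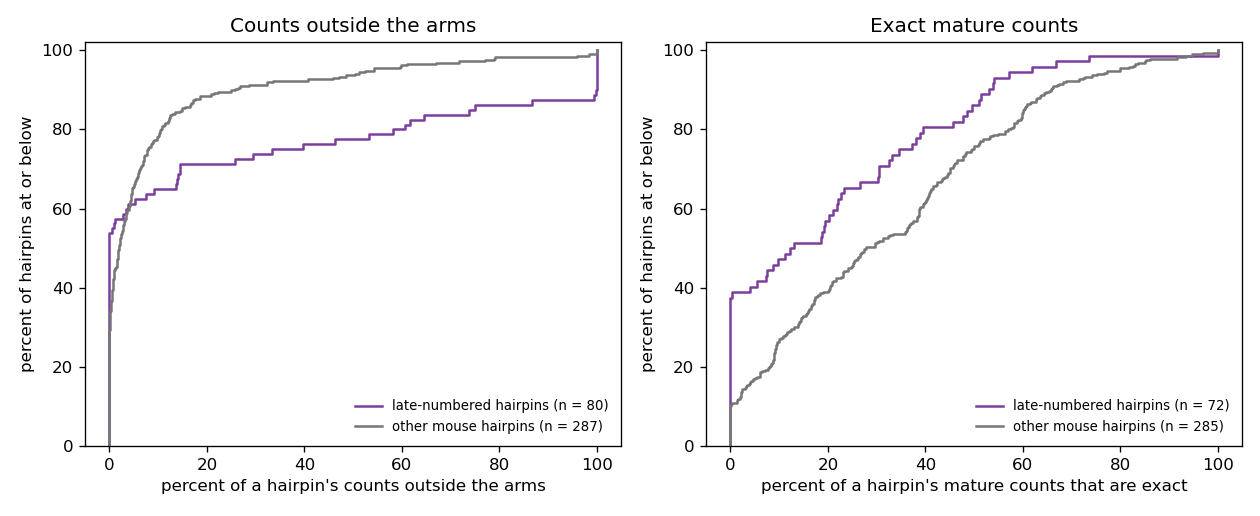
Cumulative percent of hairpins of at least 100 counts by the percent of counts outside the arms (left) and by the percent of mature counts that are exact (right), for late-numbered and other mouse hairpins. The late-numbered curve starts high and stays flat on the left, with 10 of 80 hairpins over 90%, and starts higher at 0 on the right.

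mir-5099, between genes at chr12:36816205-36816278, was the most abundant hairpin with no exact count. RefSeq gave no mature sequence for mir-5099, so its lack of exact counts could not be checked against one. Its 3' arm had 1718, 1992, 1758 and 2321 counts in female hearts and 2495, 1764, 2238 and 1739 in male hearts. Outside the arms lay 3067, 2821, 4305 and 4346 counts in female hearts and 4295, 2995, 3997 and 3259 in male hearts. The counts outside exceeded those on the arm in all 8 hearts, at 64.5% of 45110. The 5' arm had none.

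mir-3968, mir-3963 and mir-5100 share letters near their 5' end. mir-3968 had 2400 counts on the 3' arm with none exact, and 7234 (75.1%) outside. mir-3963 had 10 counts on the 5' arm and 7854 outside. Its counts outside were 409, 1630, 713 and 879 in female hearts and 649, 1277, 1621 and 676 in male hearts. mir-5100 had 4408 counts on the 3' arm, of which 13 were exact, all in female replicate 4, and 5.20% outside. The printed miR-3968 ends in cca, the letters that are added to the 3' end of tRNAs in the cell. None of the 3 hairpins overlaps an annotated tRNA gene, and an origin of their reads from tRNA was not tested.

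mir-5103, mir-6240 and mir-1928 had 5344, 4321 and 2183 counts, all outside the arms, and none of these was an exact match. miR-1928 carries the seed of miR-221-3p and miR-222-3p, and no mature count was listed for it. mir-3970, for which RefSeq gave no mature sequence either, had 4303 counts on the 5' arm with none exact. Of its arm counts 68.8% were unique to an entry. Its level was even, at 16.2, 17.4, 15.1 and 17.7 CPM in female hearts and 14.2, 17.5, 15.8 and 17.0 in male hearts.

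The let-7 lookalikes were likewise without exact mature counts. mir-1961, whose sequence carries the let-7 seed, had 99, 143, 107 and 141 counts on the 3' arm in female hearts and 101, 115, 155 and 80 in male hearts, of which none was exact. mir-3962 had 114, 139, 114 and 169 counts in female hearts and 106, 125, 138 and 69 in male hearts, all outside the arms. Both were present in every heart. let-7 is among the most abundant miRNA families of the heart, and an origin of these counts from let-7 was not tested.

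**Figure D4:**
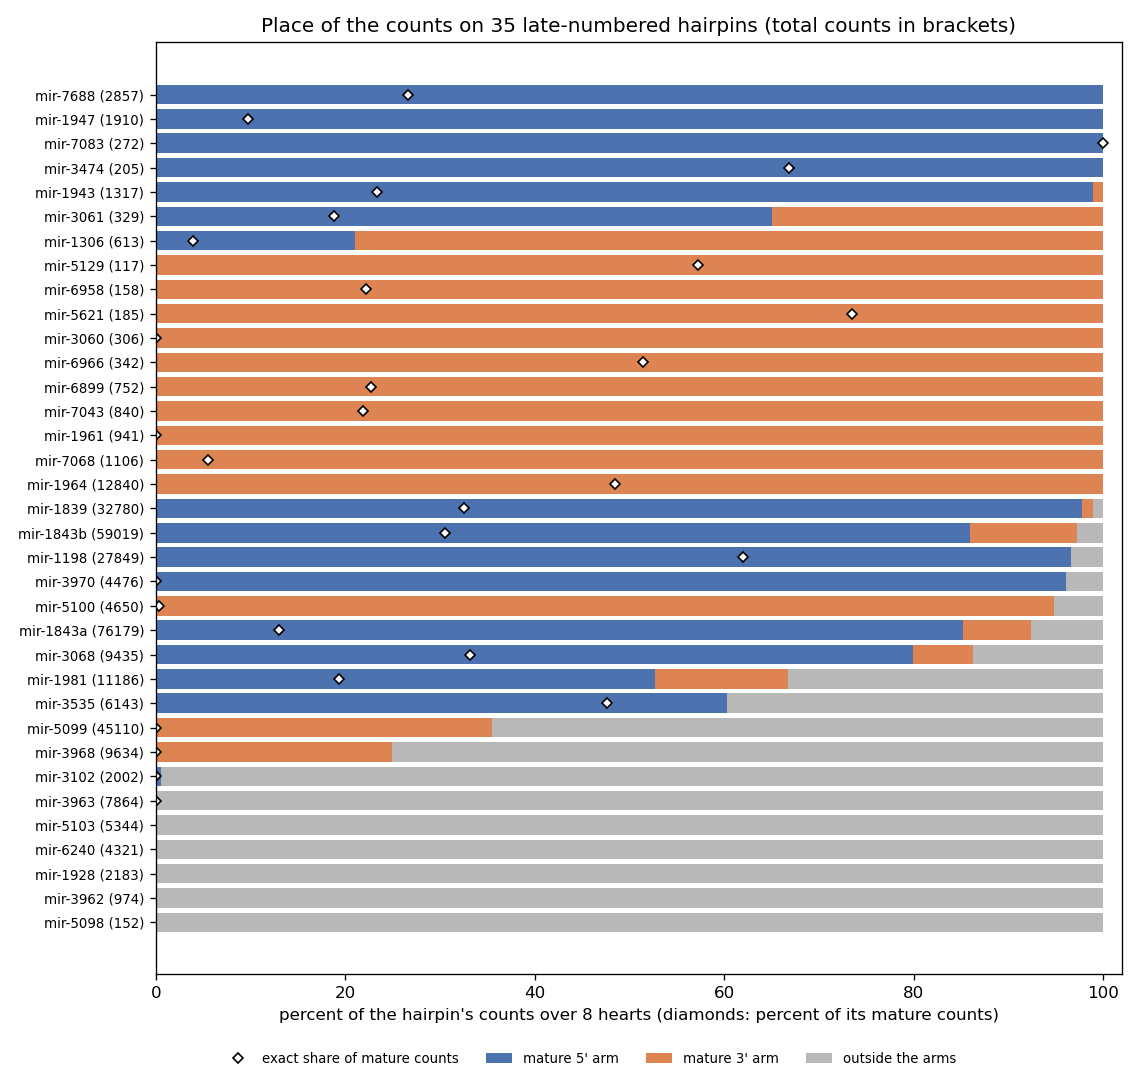
Percent of each hairpin's counts on the mature 5' arm, on the mature 3' arm and outside the arms, summed over 8 hearts, for 35 late-numbered hairpins with their total counts in brackets; diamonds give the percent of mature counts that are exact. The hairpins at the top lie wholly on the arms, those at the bottom wholly outside them, and mir-5099, mir-3968, mir-3970 and mir-1961 have no exact count.

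Female replicate 1 stood apart from the other hearts for a group of these hairpins. Of the members of at least 100 counts, 5 had over 50% of their counts in a single heart, and in all 5 it was this one. mir-6538, in an intron of Rnf144a, had 341 counts in female replicate 1 and 0 in the other 7 hearts, and mir-3470a had 306 and 0. mir-3470b had 607, 0, 10 and 0 counts in female hearts and 90, 44, 22 and 0 in male hearts. mir-7225 had 284, 0, 0 and 0 in female hearts and 0, 30, 0 and 11 in male hearts, and mir-5098 had 142, 0, 0 and 0 in female hearts and 0, 10, 0 and 0 in male hearts. mir-6240 had 1543, 214, 164 and 288 in female hearts and 240, 459, 1187 and 226 in male hearts, so male replicate 3 was high as well. Of these 6 hairpins mir-7225 alone had exact mature counts, 94 of 241, and mir-5098 and mir-6240 had no mature counts. The sequence of miR-3470b occurs whole in 118 noncoding transcripts of GENCODE vM21. Total counts of this library were the lowest of the 8, and a part of that in the result was not tested. Without it, 142 members were listed and the members' share outside the arms was 22.1%.

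**Figure D5:**
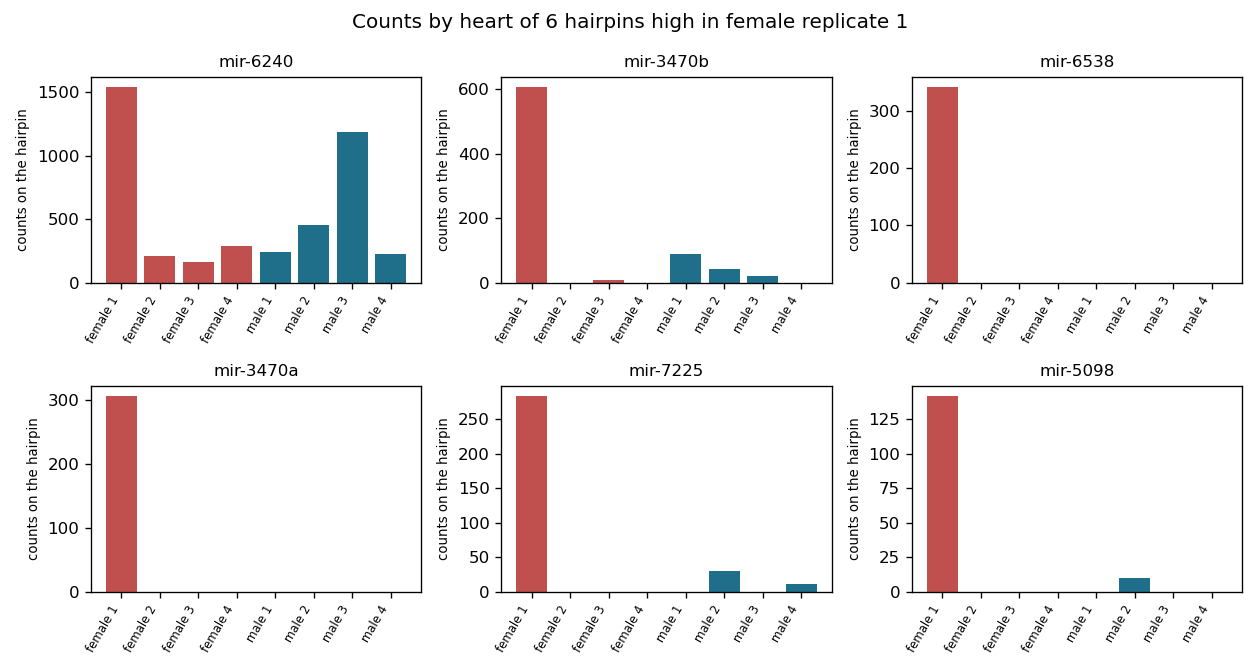
Counts on the hairpin in each heart, female replicates 1 to 4 on the left and male replicates 1 to 4 on the right of each panel, for 6 hairpins. Female replicate 1 is the highest bar in every panel, and in mir-6538 and mir-3470a the only one.

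Female and male hearts were compared per hairpin arm with edgeR's quasi-likelihood test over all 703 arms of the 3 species that passed the filter on low counts. The test asks whether the level of an arm depends on sex. It covered 80 arms of 73 members, and the other members had no arm that passed. No member arm was called at an adjusted p under 0.05 (Benjamini-Hochberg over the 703 arms), and no arm of any kind was, so 0% were called. At an unadjusted p under 0.05 there was 1 member arm of 80, lower in female hearts. Over all arms 5.69% had such a p, with 1.99% lower and 3.7% higher in female hearts. DESeq2 called no member arm either, with 1 at an unadjusted p under 0.05, and 3 arms of other hairpins, and limma-voom called none, with 3 member arms at that p.

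The member arm with the smallest p was the 3' arm of mir-3060, in an intron of Rnf215. It had 1.42, 0.761, 0.587 and 0.545 CPM in female hearts and 1.41, 1.33, 1.93 and 1.68 in male hearts. Female replicate 1 lay within the male range, and the log2 fold change of female over male was -0.95 ± 0.41 (SE), with an unadjusted p of 0.0413 and an adjusted p of 0.827 in edgeR. The next 4 by p were the 3' arm of mir-6899 (log2 fold change -0.54), the 5' arm of mir-7688 (-0.48), the 3' arm of mir-7043 (-0.60) and the 3' arm of mir-7068 (-0.45). Their groups overlapped, and the adjusted p was 0.827 in edgeR for each. With exact counts only the direction turned for mir-7043 (0.0567) and mir-7068 (0.57), and without male replicate 4 mir-7043 had -0.34. The 5' arm of mir-1843b was the only member arm whose groups did not overlap. It had 177, 144, 178 and 202 CPM in female hearts and 217, 203, 224 and 209 in male hearts, and its adjusted p was 0.827 in edgeR. All 4 female hearts lay below all 4 male hearts, as in 0.853% of all arms, while 2.84% of all arms were the other way round and no member arm was.

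For the 5' arm of mir-1839 and the 3' arm of mir-1306 the difference was within the spread between hearts. The 5' arm of mir-1839 had 125 ± 34.0 (SD) CPM over 4 female hearts and 124 ± 14.99 (SD) over 4 male hearts, with a log2 fold change of 0.01 ± 0.22 (SE). The 3' arm of mir-1306 had 1.73 ± 0.750 (SD) CPM over 4 female hearts and 1.89 ± 0.159 (SD) over 4 male hearts, with a log2 fold change of -0.12 ± 0.34 (SE). Over the 80 member arms the median log2 fold change was -0.23, with 62 below 0 and 18 above, against a median of -0.00 over the 703 arms with 353 below 0 and 350 above. The median standard error of a single member arm was 0.45, and the shift of the list was not tested. The summed mature level of all members was 996 ± 166 (SD) CPM over 4 female hearts and 1147 ± 83.4 (SD) CPM over 4 male hearts, and the groups overlapped.

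The log2 ratio of 5' to 3' counts was compared between the sexes with limma over 125 mouse hairpins with a mean of at least 10 counts on each arm, 7 of them members. It asks whether the choice of arm differs. No member and no other hairpin was called (0%). At an unadjusted p under 0.05 there was 1 member of 7, mir-1306, higher in female hearts. Over all 125 hairpins 5.6% had such a p, with 4.8% lower and 0.8% higher in female hearts, and the 0.8% is mir-1306 itself. Its adjusted p was 0.59 in limma. The size of the difference is set by the pseudocount, because the 5' arm was at 0 in 3 male hearts: the log2 ratio was higher in female hearts by 4.12 with a pseudocount of 0.5 and by 1.86 with one of 5. Without male replicate 2, the one male heart with 5' counts, the adjusted p was 0.00113 in limma, and over all alternatives it ran up to 0.862. For mir-1839 the log2 ratio was 6.73, 6.49, 8.37 and 6.47 in female hearts and 6.29, 5.99, 6.29 and 5.71 in male hearts. All 4 female hearts lay above all 4 male hearts. The share of such hairpins was 0.8% of the 125, which is mir-1839 itself, against 1.6% the other way round. The adjusted p of mir-1839 was 0.59 in limma. The 3' arm of mir-1839 in female replicate 3 had 10 counts, the smallest a unique sequence can have here. For mir-1843a, mir-1843b, mir-1981, mir-3068 and mir-3061 the unadjusted p was between 0.172 and 0.858 in limma.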

How the data were processed

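Small RNA of 8 hearts was sequenced, 1 library per heart, 4 per sex. The deposited tables hold whole-number counts per hairpin entry of mouse, human and rat, split per the file headers into mature 5', mature 3' and other counts, each with an exact and, for the arms, a unique column. In every row the total was the sum of arms and other. The submitters' processing notes name STAR and mm10, with no version or role. What program counted the reads, how they were trimmed and what exact means is not given in the sources used here. Where a sequence fitted several entries, counts of 1 to 9 such as 6 and 6 for mir-3084-1 and mir-3084-2 were found, as a division of shared reads would leave.

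An entry absent from a table was set to 0. Group and replicate came from the labels, which extract each heart separately. The members and lists were chosen with earlier results of these data known. Named hairpins are mir-1839 and mir-1306, the 10 highest in mature CPM, the 5 smallest p of sex, the extremes of the outside, exact and minor-arm shares (5 each, at least 100 counts), up to 5 that share a seed and those that meet all 4 criteria. Others were chosen after their values were seen. Hairpins of named lists (short RNA overlap, mirtron-like, exon or intron) came from RefSeq (GRCm38.p6) and GENCODE vM21, on the assembly of mm10. Of the other lists, 10 members had a human or rat entry of the same name and held 30.4% of member counts, and 18 had a numbered or lettered copy, with 38.9%. Use of strand in counting is not given, so reads of a hairpin and its antisense partner cannot be told apart.

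edgeR 4.0.16 (R 4.3.3) was run with glmQLFit and glmQLFTest, sex alone, TMM factors and filterByExpr (minimum count 10, minimum total 15), 1 feature per entry and arm. It kept 703 of 891 features, which held 99.998% of mature counts. Counts outside the arms were left out of library sizes. Standard errors were taken from the fold change and the F statistic. limma 3.58.1 tested the log2 arm ratio with a pseudocount of 0.5. Hairpins were folded with RNAfold 2.7.2. The tests were tried on simulated data first. Alternatives were other scalings and filters, DESeq2 1.42.0, limma-voom, other units, each library left out and the replicate number as a block. TMM factors were 0.875 to 1.40, the highest in female replicate 3. Chi-square over degrees of freedom was at least 452 for each pair of libraries, so none was a copy of another.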

Additional observations from a re-analysis of the deposited data

Results flagged for a closer look

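In 35 named hairpins the CPM on the whole hairpin (arms and outside) were looked at within each sex, 70 groups of 4 in all, and 7 held a heart whose gap to the nearest other heart exceeded Dixon's critical value for 4 samples. Chance alone marks about 1 in 20 such groups, and 1 heart above 0 among 3 at 0 is always marked. Female replicate 1 was the heart apart in 3 of them. mir-6240 had 59.2 CPM there, against 3.85 to 8.71 in the other female hearts. mir-5098 had 5.45 CPM there and 0 in the other female hearts. mir-3535 had 32.6 CPM there, against 12.5 to 14.4 in the other female hearts. Among male hearts, mir-5098 had 0.332 CPM in replicate 2, which is 10 counts outside the arms, and 0 in the others. Values of 1 to 9 outside the arms were seldom listed, so the gap says nothing beyond counts that small. In the same sex, mir-7043 had 5.96 CPM in replicate 4 against 3.02 to 3.34, and mir-3102 had 7.36 CPM in replicate 1 against 3.75 to 4.21. mir-3474 was at 0 in female replicate 4, against 0.652 to 0.775 CPM in the other female hearts. That 0 may stand for reads under 10 counts that were not listed, so the gap may be smaller than it looks.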

How the results depend on the processing

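No member arm was called under any of 20 alternatives to the edgeR comparison. Over all arms, which had no call, 1 was called with upper quartile factors, with at least 10 CPM in 4 libraries, with mouse entries only and with the replicate number as a block, and 3 with DESeq2; leaving out each library gave 0 to 1. Of the arm ratios, a mean of at least 100 counts on each arm gave 1 call over all hairpins and 0 members, and leaving out each library gave 0 to 1 for all hairpins and for members. That member was mir-1306 without male replicate 2, with a log2 ratio difference of 5.56 and an adjusted p of 0.00113 in limma, where the adjusted p over its alternatives ran from 0.00113 to 0.862. In that setting all male 5' counts of mir-1306 are 0. The members that met every criterion numbered 24 without the one on both arms, and 4 to 7 under the other alternatives.

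The cause of the following was not tested. mir-7043-3p and mir-7068-3p changed sign with exact counts only (log2 fold change 0.0567 and 0.57). mir-1306-3p did so with library size alone (0.12) and with the whole hairpin (0.33), and was -0.459 to 0.0443 with each library left out. mir-1839-5p, at 0.01, was -0.0286 with limma-voom, -0.0095 with mouse entries only, -0.00075 with the whole hairpin, -0.0261 with the replicate block and -0.193 to 0.167 with each library left out. mir-3060-3p, mir-6899-3p and mir-7688-5p kept their sign and missed the threshold throughout. The median of the member arms was below 0 in every setting, from -0.33 to -0.11, and below the median of all arms, which was 0.13 with library size alone.

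Same-numbered female and male hearts deviated together in 3 of 4 pairs (r = 0.335, 0.223, 0.148 and -0.0322 across arms). Of the 4 female hearts, 3 correlated best with the male heart of their number. For female replicate 2 this was nearly a tie, at 0.2227 against 0.2219 for a male heart of another number. This is a hint from the data only: the labels give no shared litter or day, and not every pair was over 0.1, so the fit without the block was kept. The replicate block gave 0 member calls among arms and among arm ratios, and 4 member arms at an unadjusted p under 0.05 in edgeR against 1 without it. Without mir-5099 and mir-3968, a setting chosen after seeing the data like that without female replicate 1, the members' share outside the arms was 14.4%. The 25 members listed in a single heart had a median of 11 counts, near the smallest listed unique count of 10. They ranged from 2 to 341 counts, and 2 of them had at least 100. The deepest library, female replicate 2, listed 95 members, and male replicate 1 listed 106. A part of depth or of unlisted low counts in these listings was not tested.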
